A study of Trametes versicolor and Gelatoporia subvermispora with 30 samples.

Results

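Milled poplar wood was compared with cellobiose as the growth substrate of Trametes versicolor, a white-rot basidiomycete that decays wood. The 6 libraries were chosen by their labels, 3 from mycelium on milled poplar and 3 from mycelium on cellobiose, out of 30 libraries of 2 fungal species. Poplar cultures held 2 g of milled, autoclaved poplar in 25 mL of a minimal medium of the Czapek-Dox type, with no cellobiose. Cellobiose cultures held that disaccharide at 5 g per litre in the same medium. For side-by-side values, 3 further T. versicolor groups of 3 libraries each were used, on cellobiose with 25 mg of lignin in 25 mL, with 2 mM syringic acid, or with 2 mM 4-hydroxybenzoic acid (4HBA). The labels name no genetic change in any group, and ribosomal RNA was removed from total RNA with a kit for yeast before stranded libraries were made. The labels do not say whether the libraries of a group came from separate cultures, so p-values measure only the spread between these libraries.

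White-rot fungi degrade lignin with secreted oxidative enzymes. Class II heme peroxidases do this with hydrogen peroxide: manganese peroxidases oxidise Mn(II) to the diffusible oxidant Mn(III), lignin peroxidases take electrons from aromatic units of high redox potential, and versatile peroxidases combine both activities. Laccases are copper enzymes that oxidise phenols with oxygen. Cellobiose is the disaccharide that cellulose degradation releases, whereas wood presents cellulose, hemicellulose and lignin as a solid. The files give symbols for 42 genes, most of them of these families, and locus tags with no product name for the others. A symbol stands here for the enzyme class its name abbreviates, which counts alone cannot check.

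Gene counts, in mega-counts (M), summed to 42.2, 50.4 and 44.0 M in the poplar libraries and to 23.8, 23.8 and 24.4 M in the cellobiose libraries. The libraries also differed in make-up. In the poplar libraries 2.76% to 3.23% of all counts were unaligned reads, against 21.2% to 23.1% in the cellobiose libraries. In 10 gene rows, the only ones of 14570 without an entry in the RefSeq gene table (assembly Trametes versicolor v1.0), stood 0.448% to 1.14% of gene counts on poplar, against 41.6% to 48.1% on cellobiose. These 10 rows supply 9 of the 10 most abundant genes on cellobiose. Levels are given as normalised CPM, that is counts scaled to a common library size by the TMM method and not to gene length. The highest row, TRAVEDRAFT_137432, had 1016, 2326 and 838 CPM on poplar and 185384, 186632 and 152563 CPM on cellobiose. In these rows the 4HBA libraries looked like the cellobiose libraries, and the lignin and syringic acid libraries like the poplar ones. Neither the substrate nor the make-up of the library changes without the other in the comparison with cellobiose, so they cannot be told apart there. Values against lignin and syringic acid, whose libraries are close to the poplar ones in the 10 rows and in unaligned reads, are therefore given beside it for the main members. In other respects they stand apart. TMM factors were 0.971 to 1.01 on poplar, 1.42 to 1.51 with lignin or syringic acid and 0.652 to 0.750 on cellobiose, and gene counts with lignin or syringic acid were 16.7 to 27.3 M. Without the 10 rows, the upper 50% of counts lay in 486 to 508 genes on poplar, 860 to 936 with lignin or syringic acid and 730 to 794 on cellobiose. These comparisons share the poplar libraries, so they are not independent of the comparison with cellobiose. Sample numbers of the lignin and syringic acid libraries are also written differently in the titles, and the labels do not say what that marks. A level in such bulk RNA cannot separate fewer hyphae that make a transcript from less of it in each.

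**Figure D1:**
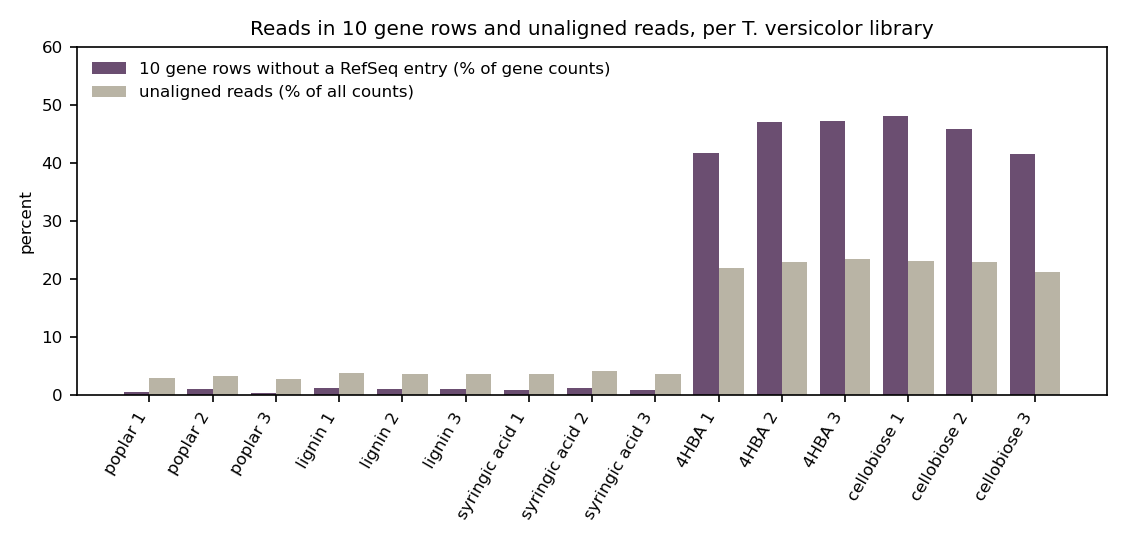
Bars give, for each of 15 T. versicolor libraries on the x axis, the percent of gene counts in the 10 gene rows that have no RefSeq entry and the percent of all counts that were unaligned reads. The 10 rows hold 0.448% to 1.14% on poplar and 41.6% to 48.1% on cellobiose, and the 4HBA libraries stand with cellobiose.

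The change of substrate went with changes in most of the transcriptome. Of 12295 tested genes, 8752 were called (71.2%) with edgeR's quasi-likelihood test at a Benjamini-Hochberg adjusted p below 0.05, 4394 up on poplar (35.7%) and 4358 down (35.4%). In 9434 genes (76.7%) the 3 poplar and the 3 cellobiose libraries did not overlap. The median log2 change was -0.01, with quartiles at -0.63 and 0.60. Rises of at least 4-fold numbered 462 (3.76%) and falls of at least 4-fold 696 (5.66%). At 16-fold or more there were 64 rises (0.521%) and 127 falls (1.03%). Against lignin 9438 genes were called (76.8%), 4595 up (37.4%) and 4843 down (39.4%), and against syringic acid 8910 (72.5%), 4307 up (35%) and 4603 down (37.4%). All 10 rows fell against cellobiose, by log2 changes of -6.97 to -5.96, and 0 of them were called against lignin (-0.25 to 0.51) or against syringic acid (-0.16 to 0.40). With these rows left out of the fit, 4409 genes rose and 4331 fell, an alternative added after the data were seen.

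**Figure D2:**
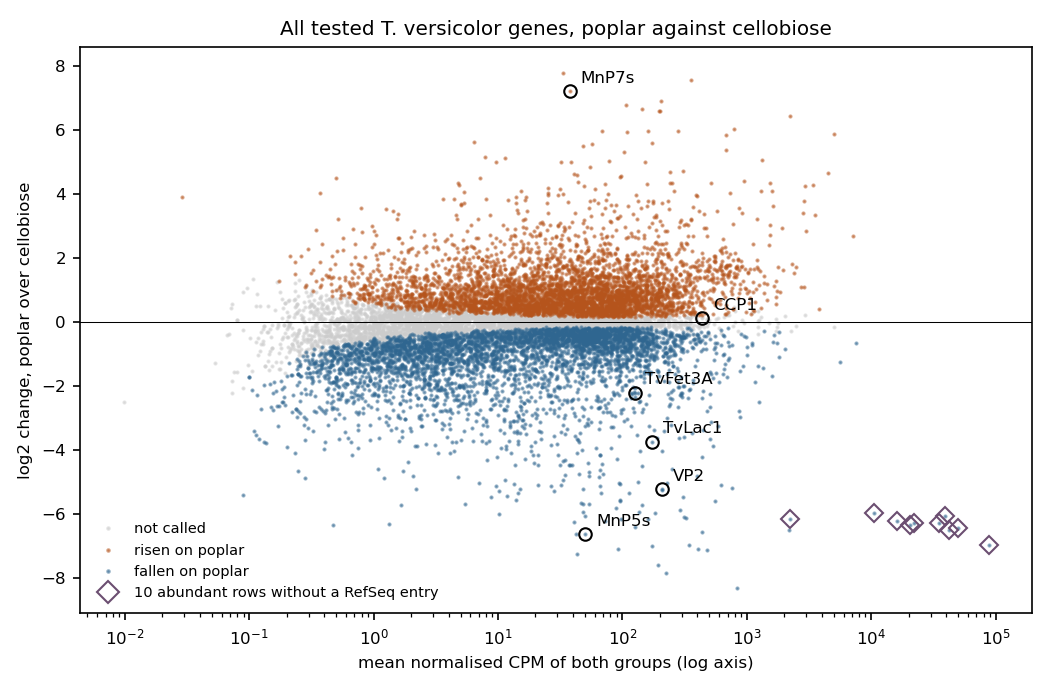
Each point is 1 of 12295 tested genes, with its mean normalised CPM over both groups on a log x axis and its log2 change, poplar over cellobiose, on the y axis. Circles mark 6 genes with symbols, among them MnP7s at 7.20 and MnP5s at -6.62, and diamonds mark the 10 abundant rows without a RefSeq entry, all between -6.97 and -5.96.

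Among the 42 genes with a symbol 7 rose, 19 fell and 16 were not called, and in 32 the groups did not overlap. These shares are near or below the background of 71.2% called and 76.7% not overlapping. The members that held most of the class II peroxidase counts differed between the substrates. The 26 class II peroxidase genes summed to 173, 171 and 164 CPM on poplar and to 781, 631 and 629 CPM on cellobiose. On poplar the manganese peroxidase gene MnP7s held 43.6% to 45.8% of that sum, against 0.0247% to 0.113% on cellobiose. The versatile peroxidase gene VP2 held 6.46% to 6.53% on poplar and 57.6% to 61.3% on cellobiose. In lignin libraries the shares were 0.375% to 0.507% for MnP7s and 34.6% to 42.5% for VP2.

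MnP7s was at 79.5, 74.6 and 72.1 CPM on poplar, against 0.193, 0.587 and 0.710 CPM on cellobiose. The cellobiose values rest on 3, 10 and 13 reads, the first of them at the 3-read limit below which a library tells nothing apart from 0, and the poplar values on 3143 to 3650 reads. Every poplar library lay far above every cellobiose library. The log2 change was 7.20 ± 0.18 (SE, 95% interval 6.82 to 7.58, edgeR adjusted p = 6.15e-14), the third largest rise among all genes that reached 10 CPM. It was also far higher on poplar than with lignin (1.05 ± 0.0834 CPM, SD, n = 3, log2 change 6.16) or with syringic acid (1.00 ± 0.103 CPM, log2 change 6.22), and in 4HBA libraries it averaged 0.926 ± 0.109 CPM. Per kilobase of gene, MnP7s ranked second of the 42 symbol genes on poplar and 40th on cellobiose.

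Manganese peroxidase genes numbered 13, of which 7 fell, 2 rose and 4 missed the threshold, with a median log2 change of -1.93 beside -0.01 over all tested genes. The share called, 69.2%, is near the 71.2% of all tested genes, of which 35.7% rose and 35.4% fell. Against lignin 2 rose and 8 fell, where 37.4% of all tested genes rose and 39.4% fell. Against syringic acid 1 rose and 10 fell, where 35% of all tested genes rose and 37.4% fell. MnP5s had 0.989, 0.899 and 1.15 CPM on poplar and 122, 85.6 and 92.5 CPM on cellobiose, a log2 change of -6.62 ± 0.39 (SE, edgeR adjusted p = 4.34e-10). MnP1s had 3.04, 3.35 and 2.87 CPM on poplar, against 65.9, 77.2 and 46.1 CPM on cellobiose. MnP3s had 0.918, 0.695 and 0.711 CPM on poplar, against 16.8, 14.7 and 14.8 CPM on cellobiose. All 3 genes were lower in every poplar library than in any cellobiose library, and MnP1s and MnP3s fell by 4.35 and 4.31 on the log2 scale (edgeR adjusted p = 5.67e-10 and 3.56e-11). Against lignin the log2 changes of MnP5s, MnP1s and MnP3s were -4.37, -3.37 and -2.53, and against syringic acid -3.86, -4.18 and -3.70. Smaller falls of -2.28 to -1.93 were found for MnP4s, MnP10s, MnP8s and MnP2s. The second rise was that of MnP11s, at 17.5, 17.3 and 18.3 CPM on poplar and 13.2, 10.6 and 12 CPM on cellobiose (log2 change 0.57 ± 0.12, SE). The 4 not called, MnP6s, MnP9s, MnP12s and MnP13, were all below 2 CPM in all 6 libraries.

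VP2 had 11.3, 11.2 and 10.6 CPM on poplar and 479, 363 and 385 CPM on cellobiose. The groups were far apart, and the log2 change was -5.21 ± 0.22 (SE, edgeR adjusted p = 1.68e-11). The poplar level was below those with lignin and syringic acid as well (log2 changes -3.14 and -3.30). Of the other versatile peroxidases VP3at fell (1.65, 1.21 and 0.872 CPM on poplar, 1.48, 2.41 and 2.19 CPM on cellobiose), but its groups overlapped, and VP1 was not called. The count of fallen versatile peroxidases was 1, not 2, without poplar replicate 3, cellobiose replicate 2 or cellobiose replicate 3. With 35.4% of all tested genes fallen, a count among 3 genes tells little.

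Of 10 lignin peroxidases 4 rose and 6 were not called, with a median log2 change of 0.32. Over all tested genes 35.7% rose, so the count is near the background. LiP9 had 7.35, 7.85 and 7.14 CPM on poplar and 1.41, 1.53 and 1.26 CPM on cellobiose. Its groups did not overlap, and it rose by 2.41 ± 0.17 on the log2 scale (SE, edgeR adjusted p = 3.40e-09), with 1.93 against lignin and 1.48 against syringic acid. LiP4 (0.78), LiP2 (0.71) and LiP3 (0.34) were the other rises. Of these, LiP4 differed from lignin by -0.03 and from syringic acid by 0.05, neither called. Against lignin, where 37.4% of all tested genes rose and 39.4% fell, 4 lignin peroxidases rose and 3 fell. Against syringic acid, with 35% and 37.4% of all genes, 4 rose and 4 fell. LiP6, the highest per kilobase of those not called, had 11.5, 10.9 and 9.66 CPM on poplar and 8.30, 7.57 and 10.3 CPM on cellobiose (log2 change 0.29, 95% interval 0.01 to 0.58, edgeR adjusted p = 0.0639).

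**Figure D3:**
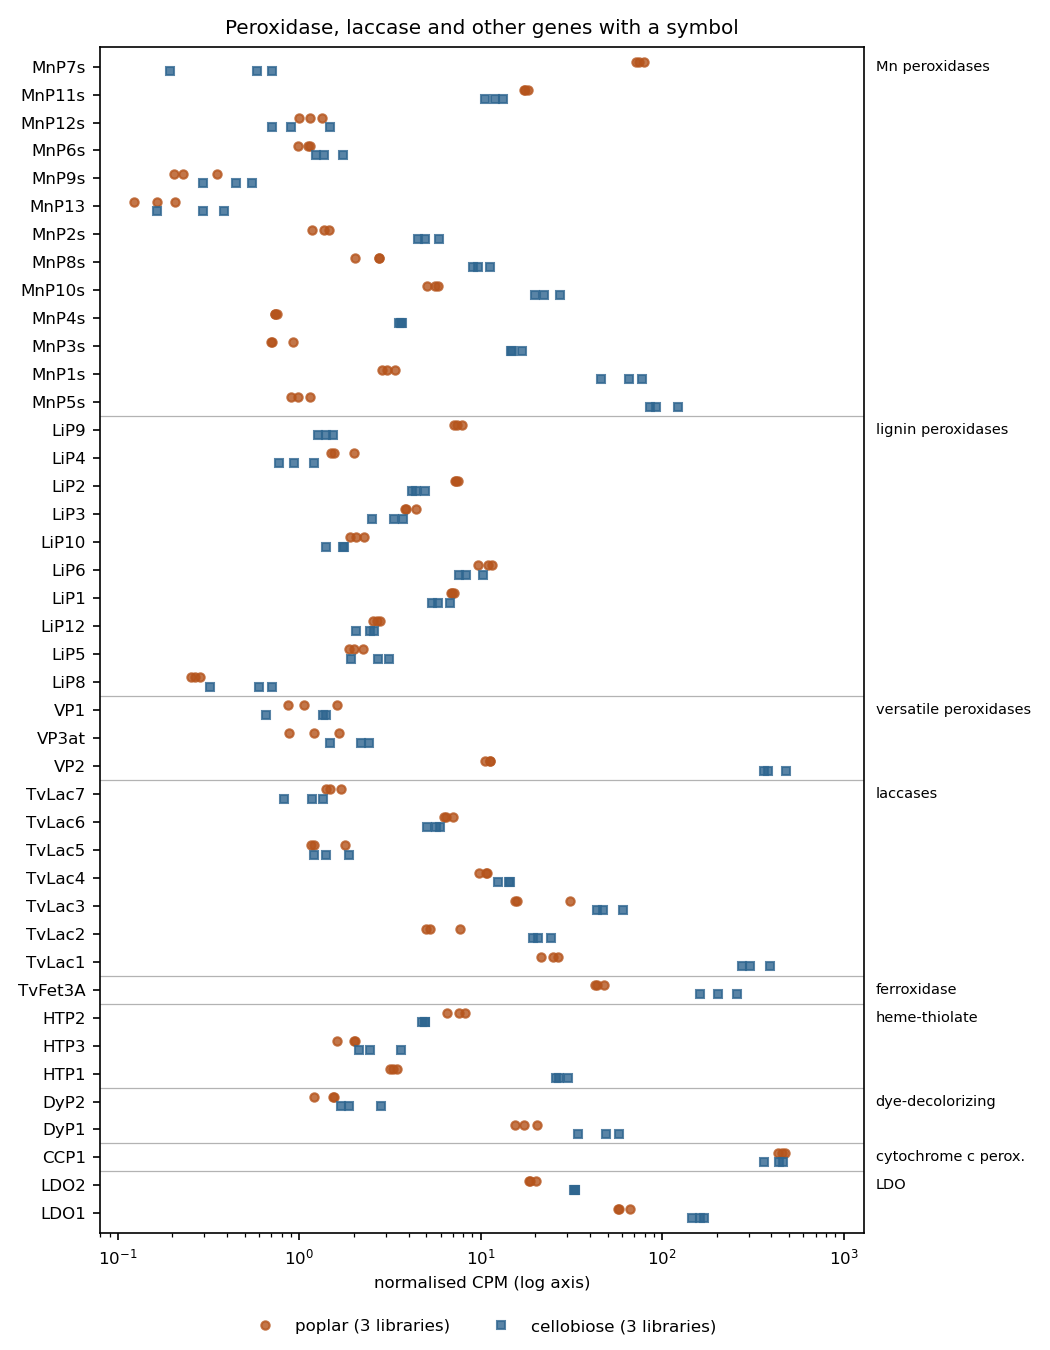
Points give the normalised CPM of every symbol gene on a log axis in each library, circles for poplar and squares for cellobiose, with genes grouped by family and ordered by log2 change. MnP7s lies between 72.1 and 79.5 CPM in the poplar libraries and between 0.193 and 0.710 CPM in the cellobiose libraries, while MnP5s, VP2 and TvLac1 lie the other way round.

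Of 7 laccase genes 4 fell on poplar, 3 were not called and 0 rose. The share called, 57.1%, is below the 71.2% of all tested genes, of which 35.4% fell. Their sum was 62.1, 68.2 and 83.3 CPM on poplar and 361, 395 and 496 CPM on cellobiose. Most of the cellobiose sum came from 1 gene. TvLac1 had 21.6, 26.8 and 24.9 CPM on poplar and 274, 303 and 394 CPM on cellobiose. It fell by 3.73 ± 0.25 on the log2 scale (SE, edgeR adjusted p = 1.76e-09), with no overlap, and held 29.9% to 39.3% of the laccase sum on poplar and 75.9% to 79.4% on cellobiose. TvLac3 had 15.5, 15.8 and 31.2 CPM on poplar, against 43.5, 47.1 and 60.6 CPM on cellobiose. Poplar replicate 3 was the highest of its group but below each cellobiose library, and the log2 change was -1.28 ± 0.30 (SE, edgeR adjusted p = 0.00118). With lignin TvLac3 averaged 392 CPM, so that its log2 change on poplar against lignin was -4.24, whereas that of TvLac1 was -2.49. TvLac2 fell by 1.85 and TvLac4 by 0.40 on the log2 scale, and TvLac5 (-0.10), TvLac6 (0.24) and TvLac7 (0.47) were not called. Against lignin 5 of the 7 fell and against syringic acid 6, with 0 rises in either. Of all tested genes 39.4% fell and 37.4% rose against lignin, and 37.4% fell and 35% rose against syringic acid.

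TvFet3A, named for the multicopper ferroxidase of iron uptake in yeast, had 43.9, 47.6 and 42.7 CPM on poplar and 204, 161 and 257 CPM on cellobiose. The groups did not overlap and the log2 change was -2.21 ± 0.16 (SE, edgeR adjusted p = 4.59e-09), with -1.28 against lignin and -1.38 against syringic acid. Among 3 heme-thiolate peroxidases, relatives of fungal chloroperoxidase and peroxygenase, HTP1 fell by 3.07 on the log2 scale, HTP2 rose by 0.61 and HTP3 was not called. Against lignin and syringic acid HTP1 changed by -1.10 and -1.82 and HTP3 by -2.77 and -2.37, all called, and HTP2 by 0.09 and -0.09, neither called. HTP1 had 3.46, 3.27 and 3.17 CPM on poplar and 30.2, 27.0 and 26.0 CPM on cellobiose. Both dye-decolorizing peroxidases, a heme family unrelated in fold to class II, fell, DyP1 by 1.41 and DyP2 by 0.56. Of all tested genes 35.7% rose and 35.4% fell, so counts in families of 2 or 3 genes tell little. DyP1 had 15.5, 17.4 and 20.3 CPM on poplar and 49.2, 58.1 and 34.3 CPM on cellobiose, with no overlap, but also only 15 CPM on average with 4HBA. DyP2 had an edgeR adjusted p of 0.0122, and without poplar replicate 1 or cellobiose replicate 2 the count of fallen genes was 1, not 2.

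CCP1, named for cytochrome c peroxidase, a mitochondrial enzyme in yeast, was the highest symbol gene per kilobase on both substrates. It had 435, 458 and 476 CPM on poplar and 439, 462 and 363 CPM on cellobiose. The groups overlapped, and the log2 change was 0.12 (95% interval -0.10 to 0.33, edgeR adjusted p = 0.319), with -0.02 against lignin and 0.06 against syringic acid. The symbols LDO1 and LDO2 belong to no family list and were picked after their values were seen. LDO1 had 57.6, 57.1 and 66.4 CPM on poplar and 169, 146 and 161 CPM on cellobiose (log2 change -1.39). Against lignin LDO1 rose by 0.36 (edgeR adjusted p = 0.0153), and against syringic acid it differed by -0.02, not called. LDO2 changed by -0.79 against cellobiose, -0.77 against lignin and -0.87 against syringic acid.

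Of 268 transfer RNA genes in the files 15 passed the low-count filter. Against cellobiose 1 rose and 2 fell, where 35.7% of all tested genes rose and 35.4% fell, and their median log2 change was -0.47. Against lignin 1 rose and 13 fell (median -1.68), where 39.4% of all genes fell, and against syringic acid 12 fell (median -1.71), where 37.4% did. The filter used all 15 libraries, so a gene low on poplar could pass it through the lignin or syringic acid libraries. TRAVEDRAFT_t24 and TRAVEDRAFT_t224, for example, averaged 0.068 and 0.0529 CPM on poplar but 0.324 and 0.496 CPM with lignin. Such a filter favours falls in these 2 comparisons, so their counts only describe the genes. TRAVEDRAFT_t204 was at 3.88, 3.98 and 2.94 CPM on poplar and 1.61, 1.11 and 2.08 CPM on cellobiose. TRAVEDRAFT_t24 and TRAVEDRAFT_t224, which fell, were below 0.5 CPM in all 6 libraries, near the 3-read limit. The log2 change of TRAVEDRAFT_t224 was -2.21, at -3.32 without poplar replicate 1 and at -1.69, not called, without cellobiose replicate 2.

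Of the 10 genes with the highest mean CPM on poplar 9 rose and 1 fell, and of the 10 highest on cellobiose all 10 fell. Among all tested genes 35.7% rose and 35.4% fell, but choosing genes for a high level in a group favours a change in that direction, so these counts only describe the genes. TRAVEDRAFT_26150, the first, had 13573, 11377 and 12087 CPM on poplar and 2177, 1552 and 2062 CPM on cellobiose. TRAVEDRAFT_166243, the next, had 10479.8, 10302 and 9006 CPM on poplar and 168, 158 and 179 CPM on cellobiose, a log2 change of 5.88 ± 0.22 (SE, edgeR adjusted p = 3.26e-12). The 2 genes did not overlap between groups, and they stood at log2 changes of 3.86 and 6.04 against lignin and 3.78 and 5.55 against syringic acid. The other 7 rises were TRAVEDRAFT_67500 (4.64), TRAVEDRAFT_69281 (4.28), TRAVEDRAFT_25762 (4.24), TRAVEDRAFT_70557 (3.79), TRAVEDRAFT_144781 (3.40), TRAVEDRAFT_27783 (3.33) and TRAVEDRAFT_170534 (2.84), at 4430.3 to 9604 CPM in the poplar libraries. TRAVEDRAFT_30062 fell by 0.67 on the log2 scale and was the 1 gene among the 10 most abundant on both substrates. Leaving out the 10 rows without a RefSeq entry, the 10 highest genes held 6.56% to 7.49% of counts in each poplar library and 5.42% to 5.72% in each cellobiose library.

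The 10 largest rises reached log2 changes of 6.02 to 7.78. TRAVEDRAFT_113478 had 68.6, 50.4 and 78.6 CPM on poplar and 0.386, 0.235 and 0.273 CPM on cellobiose, a log2 change of 7.78 ± 0.25 (SE, edgeR adjusted p = 8.61e-13). TRAVEDRAFT_55496 had 723, 636 and 746 CPM on poplar and 4.24, 3.23 and 3.88 CPM on cellobiose (log2 change 7.54). The highest of the 10 by CPM, TRAVEDRAFT_56326, had 4835, 4557 and 3827 CPM on poplar and 48.8, 51.8 and 51.5 CPM on cellobiose (log2 change 6.44). All 3 were also far lower than on poplar in the lignin, syringic acid and 4HBA libraries, and the log2 changes of TRAVEDRAFT_56326 against lignin and syringic acid were 6.62 and 6.60. The other rises were those of MnP7s, TRAVEDRAFT_28580 (6.89), TRAVEDRAFT_26555 (6.77), TRAVEDRAFT_144610 (6.64), TRAVEDRAFT_55900 (6.60), TRAVEDRAFT_149601 (6.60) and TRAVEDRAFT_110790 (6.02). Spread was widest for TRAVEDRAFT_144610, with 267, 467 and 121 CPM on poplar, and for TRAVEDRAFT_110790, with 649, 2141 and 1891 CPM. In the cellobiose libraries these 2 genes were at 2.58 to 3.22 and at 21.0 to 26.3 CPM. Lack of overlap was a condition for entering the 10 largest rises, so it is no result here.

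The 10 largest falls reached -8.29 to -6.95. TRAVEDRAFT_166830 had 5.39, 5.17 and 5.35 CPM on poplar and 1872, 1362 and 1736 CPM on cellobiose, a log2 change of -8.29 ± 0.33 (SE, edgeR adjusted p = 8.36e-12). TRAVEDRAFT_43889 had 1.93, 2.04 and 1.90 CPM on poplar and 549.9, 342 and 451 CPM on cellobiose (log2 change -7.83). TRAVEDRAFT_148196 had 1.53, 2.23 and 2.29 CPM on poplar and 371, 466 and 326 CPM on cellobiose (log2 change -7.58). All 3 were at 5.39 CPM or less in every poplar library, and with lignin they averaged 479, 146 and 326 CPM. The others were TRAVEDRAFT_48307 (-7.23), TRAVEDRAFT_169894 (-7.10), TRAVEDRAFT_168924 (-7.07), TRAVEDRAFT_49273 (-7.07), TRAVEDRAFT_156714 (-6.99), TRAVEDRAFT_137432 (-6.97) and TRAVEDRAFT_71517 (-6.95). TRAVEDRAFT_137432 is one of the rows without a RefSeq entry. The log2 changes of the other 9 falls against lignin were -7.33 to -4.76. No gene had 0 reads in all libraries of a group and 10 CPM or more in the other.

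**Figure D4:**
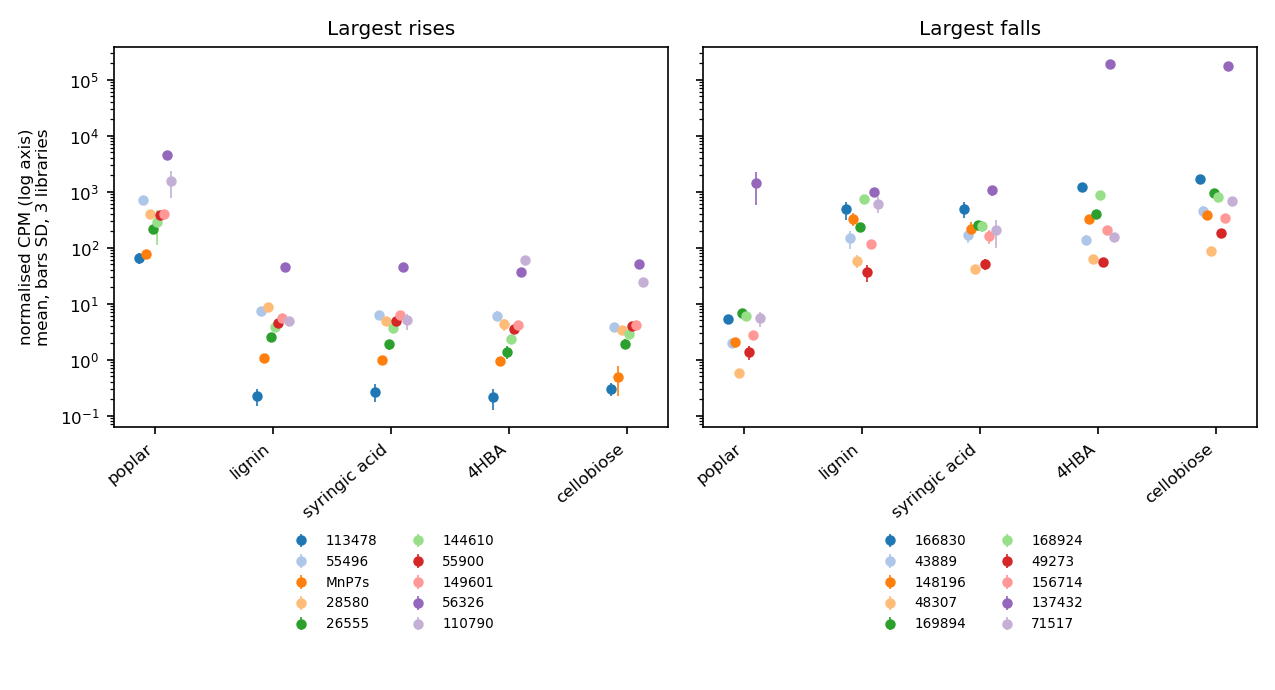
Points give the mean normalised CPM on a log axis, with bars of 1 SD over 3 libraries, of the 10 largest rises (left panel) and the 10 largest falls (right panel) in the 5 T. versicolor groups. The rises stand high on poplar and low in the other 4 groups, and among the falls TRAVEDRAFT_137432 is high with 4HBA and on cellobiose only.

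Part of the genes that fell strongly lay side by side. In the gene order of the RefSeq table, 206 of the 686 genes with a fall of at least 4-fold that the table lists (30.0%) were in 85 runs of neighbours that all did so, and 7 runs had 4 genes or more. Of the 462 genes with a rise of at least 4-fold, 77 (16.7%) were in 37 runs, the longest of 4 genes, made of TRAVEDRAFT_65291, TRAVEDRAFT_83533, TRAVEDRAFT_72559 and TRAVEDRAFT_48510, with log2 changes of 2.17 to 2.45. Of all tested genes 5.66% fell and 3.76% rose at least 4-fold, so a random gene order would also place some of them side by side. The share for a random order was not computed, and no test of these shares was made. The longest run of falls was of 13 genes, TRAVEDRAFT_126499 to TRAVEDRAFT_48911. Their log2 changes were -7.10 to -3.53, with a median of -5.05, and in all 13 the groups did not overlap. Genes entered this run only by a called fall of at least 4-fold, and 76.7% of all tested genes did not overlap. These values therefore only describe the run. TRAVEDRAFT_169894, with the largest fall of the 13, had 6.52, 6.54 and 7.53 CPM on poplar and 994, 960 and 881 CPM on cellobiose. TRAVEDRAFT_38225 had 18.6, 20.3 and 23.2 CPM on poplar and 245, 236 and 239 CPM on cellobiose. All 13 also fell against lignin (-5.42 to -1.79) and against syringic acid (-5.18 to -2.04), where 39.4% and 37.4% of all tested genes fell. Both comparisons share the poplar libraries by which the genes were chosen, so they are no independent check. Of 8 tested genes flanking the run 7 fell, 4 of them at least 4-fold, beside 35.4% and 5.66% of all tested genes. These 4 belong to a separate run of 5 falls found by the same rule. The files name no product for the 13.

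Neighbours of MnP7s behaved otherwise. MnP4s, the next gene in table order, fell by 2.28 on the log2 scale (0.730, 0.756 and 0.734 CPM on poplar, 3.54, 3.64 and 3.66 CPM on cellobiose). TRAVEDRAFT_23041 (1.11) and TRAVEDRAFT_131096 follow, the second of them at a mean of 2528 CPM on poplar and 479.8 CPM on cellobiose (log2 change 2.40). After these came MnP6s (-0.40, not called), MnP8s (-1.99) and MnP9s (-0.72, not called). MnP6s and MnP9s were low, at means of 1.09 and 0.262 CPM on poplar and 1.44 and 0.43 CPM on cellobiose. Within 6 steps of MnP7s 4 further manganese peroxidase genes were thus found and none of them rose. Of all tested genes 35.7% rose, so 4 genes are too few to differ clearly from that share. TRAVEDRAFT_23040, on the other side, rose by 1.02. Reads shared by near-identical family members could have been split or dropped by the authors' counting. The strand setting of the counting is not given in the sources used here. Levels of single members and overlapping neighbours are therefore less certain. Dropped reads would be missing from family sums as well.

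**Figure D5:**
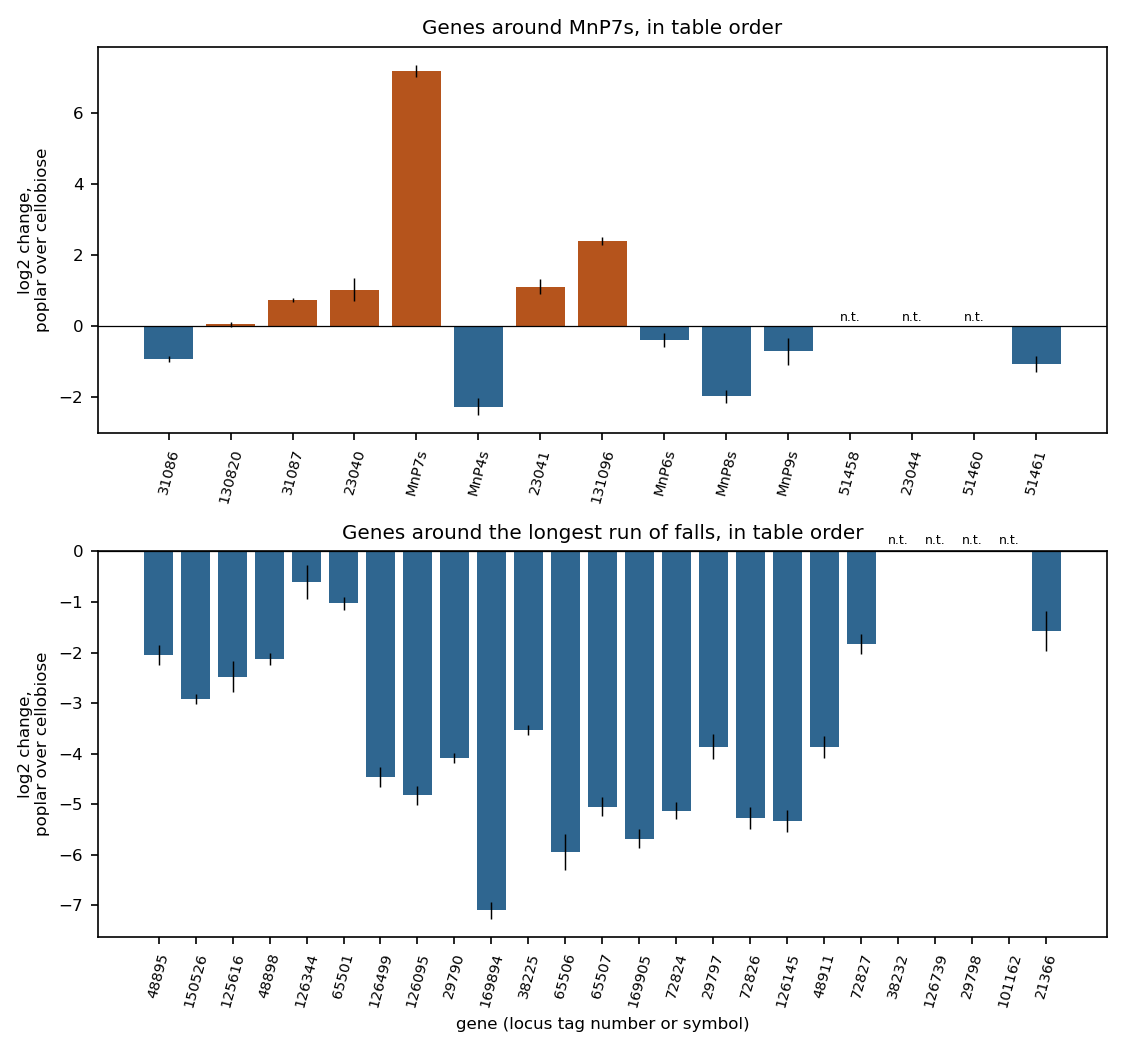
Bars give the log2 change, poplar over cellobiose, with the standard error, for genes in the order of the RefSeq table around MnP7s (upper panel) and around the longest run of falls (lower panel); n.t. marks genes not tested. MnP7s stands alone at 7.20 beside manganese peroxidase genes at -2.28 to -0.40, and the 13 genes of the run lie between -7.10 and -3.53.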

How the data were processed

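The authors deposited raw read counts per gene for each library. The tools in the submitters' processing notes are FastQC, Bowtie2, Bowtie, and HTSeq for counting. Their versions, settings, strand choice and genome build were not given in the sources used here. Each file's 5 summary entries, 9.60% to 10.5% of all counts on poplar and 45.8% to 48.4% on cellobiose, were left out. Samples were grouped by their titles. From the counts, TMM scaling, the default low-count filter and two-sided quasi-likelihood F-tests were computed with edgeR 4.0.16 in R 4.3.3 on all 15 T. versicolor libraries with 1 mean per group (10 residual degrees of freedom, common biological coefficient of variation 0.110). p-values were adjusted by Benjamini-Hochberg over the 12295 tested genes, with a threshold of 0.05. Levels are TMM-normalised CPM, mean ± SD over 3 libraries; a count of 0 allows up to 3 reads, that is 0.0613 to 0.0706 CPM on poplar and 0.164 to 0.193 CPM on cellobiose, which covers counting error only. Replicate pairs differed by more than counting noise (chi-square per gene 34.0 to 52.6 on poplar, 17.9 to 25.4 on cellobiose), so none was a copy.

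The families and lists, the naming rule and the comparison were chosen with earlier results of these data known. Named were up to 20 listed symbols with the largest called changes or, if not called, the highest levels; the 10 largest rises and falls among called genes at 10 CPM or more without overlap; the 10 most abundant genes per substrate; and called transfer RNA genes. Other genes with values here were chosen after these were seen. Of 31 lists 10 had members; the other 21 need product names or protein sequences and were not analysed here. The RefSeq table (14560 of 14570 genes matched) served for names, gene lengths and gene order only, since the files name no build. The test was checked on simulated counts, with changes planted in a small part of the genes on a profile shared by all groups. That setting lacks the difference in library make-up seen here, so it does not check the scaling or the calls under that difference. Alternatives were RLE and upper-quartile scaling, other filters, DESeq2 1.42.0, the 6 libraries alone, no abundant genes, and each library left out.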

Additional observations from a re-analysis of the deposited data

How the results depend on the processing

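The comparison with cellobiose called 4394 rises and 4358 falls, and between 8237 and 8365 genes in all when any 1 of the 6 libraries was left out. With 1 poplar or lignin library left out, 8935 to 9091 genes were called against lignin. With 1 poplar or syringic acid library left out, 8380 to 8953 genes were called against syringic acid. DESeq2 called 4324 rises and 4370 falls, RLE scaling 4357 and 4375, no filter 4449 and 4335, and the 6 libraries alone 4473 and 4421. Upper-quartile scaling moved the median log2 change to -0.09 and called 4008 rises and 4768 falls. An alternative chosen after seeing the data, leaving out the 10 rows without a RefSeq entry, gave 4409 rises and 4331 falls. No named gene reversed under any setting. LiP6 passed the test without poplar replicate 3 (log2 change 0.36, edgeR adjusted p = 0.0414) and without cellobiose replicate 3 (0.44, edgeR adjusted p = 0.0142), and TRAVEDRAFT_t224 lost the call without cellobiose replicate 2 (-1.69, edgeR adjusted p = 0.0902).

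Small counts moved most. Fallen lignin peroxidases were 1 with upper-quartile scaling. Fallen transfer RNA genes were 12 with no filter, 0 at a minimum of 50 reads and 0 with the 6 libraries alone, where fallen heme-thiolate peroxidases were 2. With 1 library left out, 1 to 2 dye-decolorizing peroxidases, 1 to 2 versatile peroxidases, 0 to 1 lignin peroxidases and 1 to 3 transfer RNA genes fell. The cause was not tested. No paired analysis was possible because the labels give the libraries no replicate numbers. Without the 10 rows gene counts were 42.0 to 49.8 M on poplar and 12.4 to 14.3 M on cellobiose, so low levels are less certain on cellobiose.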
